A study of Saccharomyces cerevisiae with 10 samples.

Results

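The effect of the *rpb1-84* mutation in cells without Rrp6 was described by comparing the libraries labelled *rpb1-84 rrp6∆* with those labelled *rrp6∆*. These are 4 of the 10 libraries of the series, 2 per strain, and the 2 WT libraries of the same experiment are given beside them as the background. Libraries of 3′ tags were made from total RNA with the QuantSeq kit and sequenced, and the deposited values are read counts per annotated transcript. Each strain was grown as 2 independent cultures in YPD rich medium at 30 °C to an OD600 of about 0.8. The transcripts were taken in groups by their identifiers. A total of 5376 of the 10431 rows start with a systematic ORF name and were taken as protein-coding. Another 5016 were noncoding, namely 925 CUTs, 847 SUTs, 60 sn(o)RNAs, 1526 NUTs and 1658 rows without a class prefix that were taken as XUTs. The remaining 39 rows are tRNAs, LTR elements and other RNAs, some of them counted together with a protein-coding gene.

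All 3 strains are labelled MATalpha his3-∆200 leu2-3,112 trp1-∆63 ura3-52, and in all of them the chromosomal RPB1 locus is replaced (rpb1-∆187::*HIS3*). RPB1 encodes the largest of the RNA pol II subunits and is therefore supplied by a plasmid that also carries *LEU2*. It is pYEB220 (labelled 2mm LEU RPB1) in WT (strain YFN116) and in *rrp6∆* (YFN543), and pYEB220-84 (2mm LEU *rpb1-84*) in *rpb1-84 rrp6∆* (YFN545), hereafter the double mutant. Both *rrp6∆* strains also carry rrp6∆::KanMX4 and were derived by plasmid exchange from a common strain, so each genotype rests on a single construction. A difference between the 2 strains may thus include plasmid copy number, which was not measured. The row of RPB1, listed as *RPO21* (YDL140C), had 23955 and 22034 counts in *rrp6∆* and 22487 and 17016 in the double mutant. The fitted difference was -0.028 ± 0.084 on the log2 scale (edgeR adjusted p = 0.811), and the groups overlapped. The row of *RRP6* (YOR001W, chromosome XV, 326832 to 329033) was not empty in the deletion strains, with 572 and 548 counts in *rrp6∆* and 290 and 176 in the double mutant against 231 and 171 in WT. Tags from outside the deleted part would be counted there as well, so the row is no check of the deletion.

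Rrp6 is the nuclear exonuclease of the RNA exosome. It trims the 3′ ends of sn(o)RNA precursors and removes CUTs, the short noncoding transcripts that the Nrd1-Nab3-Sen1 complex terminates. SUTs are longer noncoding transcripts that are stable enough to be seen in WT cells, NUTs are transcripts that appear when Nrd1 is depleted, and XUTs are those that the cytoplasmic exonuclease Xrn1 degrades. The *rpb1-84* mutation lies in the foot domain of Rpb1 and weakens the association of Rpb4/7, a dimer with roles in both transcription and mRNA decay. Among the mRNAs considered below, those for iron uptake are induced by the activators Aft1 and Aft2 when iron is scarce, and those for amino acid synthesis by Gcn4 when amino acids are.

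The 4 libraries held between 4300462 and 5601935 counts. The ORF share of all counts was 74.1% ± 0.93 (SD, n = 2) without the *rpb1-84* mutation and 81.2% ± 0.079 with it, and the libraries did not overlap. With 2 libraries per strain an exact two-sided permutation test cannot go below p = 0.333, which is the value found. Since the noncoding share differed, scaling was set on the ORFs alone, and all changes below are relative to the ORFs as a whole. A level is given as normalized CPM, that is, counts scaled to a common ORF total (CPM, counts per 1e6) after TMM scaling, with SD over 2 libraries, and a change as the log2 fold change ± SE of the double mutant over *rrp6∆* from an edgeR quasi-likelihood fit. A transcript was called when it changed beyond 2-fold with an adjusted p below 0.1 over the 9180 rows tested, and a transcript that "passed the test" had an adjusted p below 0.1 at any size. In cultures, fewer cells that express a gene and less RNA per cell cannot be told apart. Alpha-cell genes *STE3* and *SAG1* had 459 to 4089 counts in each of the 4 libraries, whereas the alpha-factor genes MF(ALPHA)1 and MF(ALPHA)2 had 1 to 20. The 6 a-cell genes in the files summed to 35 to 59 counts and the 5 genes of sporulating diploids to 105 to 171.

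Of the 5171 ORFs tested, 60 were called higher in the double mutant (1.16%) and 149 lower (2.88%). In all 209 of these, both libraries of a strain lay beyond both of the other. A called change makes that likely by itself, so it is no separate support. At any size, 1291 ORFs passed the test as higher (25% of those tested) and 1207 as lower (23.3%). The median change was -0.00023 with quartiles at -0.29 and 0.26. The median ORF tested had 217 mean counts in *rrp6∆* and 188.5 in the double mutant. ORFs called higher had medians of 262.25 and 476. Those called lower were sparse, with medians of 57.5 and 19.5, and 65 of the 149 had under 50 mean counts in *rrp6∆*. The split between higher and lower depended on the scaling. Higher ORFs made up 28.7% of the calls here, 55.2% (117 against 95) when all transcripts set the scaling, which moved the median of all ORFs to 0.16, and 13.6% (38 against 241) with total ORF counts, which moved it to -0.13. A total of 57 lists of genes by pathway or complex held 76 of the 209 called ORFs. Among lists with at least 10 tested members, those of arginine, iron uptake and purine synthesis had the largest shares of called members.

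Iron uptake genes were lower in the double mutant. Of the 25 members tested in a list of Aft1/Aft2 targets and iron handling genes, 7 were called lower (28%) and none higher. Among all ORFs, 2.88% were called lower, and 23.3% passed as lower and 25% as higher. At any size 15 passed the test as lower, 2 as higher and 8 did not pass, with a median of -0.66. With all transcripts as the scaling 5 were called lower and with total ORF counts 11. The 7 called genes are *FET3* and *FTR1*, the ferroxidase and permease that together form the high-affinity transporter, *SIT1* and *ARN1*, which import siderophore-bound iron, *FIT3*, a cell wall mannoprotein that retains siderophores, *FRE5*, of the ferric reductase family, and *TIS11*, an RNA-binding protein that promotes decay of mRNAs for iron-using proteins.

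The letters TGCACCC, the core that Aft1 and Aft2 bind, were searched on both strands of the 500 bases before each start codon in the R64 reference genome of RefSeq. They were present for 140 of 6006 protein-coding genes (2.33%), for 22 of the 28 genes in the iron list (78.6%) and for all 7 of those called lower (100%). The site nearest the start codon of each called gene is shown with 20 bases on either side, since these genes are the group that fell furthest, with the motif in capitals (GGGTGCA where it lies on the other strand). Since the list was made of Aft1/Aft2 targets and iron handling genes, a high share of this motif in it follows from its choice. A match describes the letters and not a bound site.
FET3: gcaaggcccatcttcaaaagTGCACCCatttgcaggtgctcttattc
FTR1: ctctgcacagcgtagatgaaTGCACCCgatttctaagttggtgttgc
SIT1: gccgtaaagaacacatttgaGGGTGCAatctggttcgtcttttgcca
ARN1: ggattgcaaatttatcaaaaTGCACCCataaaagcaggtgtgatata
FIT3: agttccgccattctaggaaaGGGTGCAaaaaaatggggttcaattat
FRE5: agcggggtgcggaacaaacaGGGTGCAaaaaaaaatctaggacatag
TIS11: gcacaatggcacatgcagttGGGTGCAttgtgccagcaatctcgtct
These stretches lie at chrXIII:388551-388597 (plus strand) for *FET3*, chrV:461889-461935 (minus) for *FTR1*, chrV:27449-27495 (plus) for *SIT1*, chrVIII:21205-21251 (minus) for *ARN1*, chrXV:1061213-1061259 (minus) for *FIT3*, chrXV:1061314-1061360 (plus) for *FRE5* and chrXII:416805-416851 (minus) for *TIS11*. *FIT3* and *FRE5* are divergent neighbours, so their windows overlap and they do not count as separate cases.

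*FET3* (YMR058W, chromosome XIII, 388822 to 390732) fell furthest of all ORFs named. The *rrp6∆* libraries had 609 and 600 counts and those of the double mutant 24 and 25, against 376 and 349 in WT. In normalized CPM the level was 138 ± 6.03 in WT, 135 ± 0.670 in *rrp6∆* and 6.37 ± 1.32 in the double mutant, the last being 21.4-fold lower than *rrp6∆* (-4.42 ± 0.16, edgeR adjusted p = 5.21e-20). WT and *rrp6∆* were thus alike in level and both double mutant libraries stood far below them. *FTR1* (YER145C), whose product works only with that of *FET3*, had 530 and 392 counts in *rrp6∆* and 221 and 170 in the double mutant. Its drop was much smaller, at -1.04 ± 0.12 (edgeR adjusted p = 5.88e-08), and the *rrp6∆* libraries differed from each other (117 and 88.5 normalized CPM) more than those of the double mutant (50.1 and 49.7). The call ended when all transcripts set the scaling (-0.89) and without replicate 1 of *rrp6∆* (-0.83).

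*SIT1* (YEL065W, chromosome V, 27657 to 29543) had 125 and 134 counts in *rrp6∆* and 41 and 23 in the double mutant, a change of -1.82 ± 0.20 (edgeR adjusted p = 1.18e-08). *ARN1* (YHL040C) had 171 and 171 and then 78 and 65, a change of -1.06 ± 0.16 (edgeR adjusted p = 1.97e-06) that fell under 2-fold when all transcripts set the scaling (-0.91). Neither gene overlapped between the strains. *ENB1*, another siderophore transporter, had 314 and 298 counts in *rrp6∆* and 150 and 133 in the double mutant and passed the test without reaching the 2-fold limit (-0.91 ± 0.13, edgeR adjusted p = 1.03e-06). The siderophore transporter gene *ARN2* is counted with an LTR element in the row YHLComega1/ARN2, outside the ORF rows and this list. That row fell less, from 708 and 600 counts to 538 and 389 (-0.31 ± 0.099, edgeR adjusted p = 0.0124). The mannoproteins were close to the same limit on either side of it, *FIT3* at -1.22 ± 0.16 (167 and 157 counts, then 73 and 49) and *FIT2* at -0.88 ± 0.13 (302 and 272, then 157 and 116).

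*TIS11* (YLR136C, chromosome XII, 415801 to 416658) had 276 and 263 counts in *rrp6∆* and 80 and 56 in the double mutant, a change of -1.79 ± 0.15 (edgeR adjusted p = 2.13e-11). It differed from *FET3* in its background, because WT had 62 and 61 counts, or 23.4 ± 1.99 normalized CPM against 60.2 ± 1.12 in *rrp6∆* and 17.2 ± 1.25 in the double mutant. *FRE5* (YOR384W) was barely counted outside *rrp6∆*, with 0 and 1 counts in WT, 18 and 13 in *rrp6∆* and 1 and 1 in the double mutant. The ratio of the double mutant to *rrp6∆* from the summed counts was 0.0738, with a 95% interval from 0.00856 to 0.29 that covers counting error only.

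The members that load copper into Fet3 fell less. *CCC2*, the ATPase that moves copper into the secretory pathway, changed by -0.87 ± 0.28 (43 and 47 counts, then 24 and 19), and *ATX1*, its copper chaperone, by -0.66 ± 0.10 (514 and 569, then 332 and 268). *FRE1*, the main surface reductase, changed by -0.69 ± 0.14 (212 and 201, then 134 and 90), and all 3 passed the test in edgeR. The vacuolar members *FET5*, *FTH1*, *SMF3* and *FRE6* ranged from -0.13 to 0.21 and none of these 4 passed. *ISU1* and *ISU2*, the scaffolds on which mitochondria build iron-sulfur clusters, were the members that passed as higher, at 0.30 ± 0.085 (1062 and 1046 counts, then 1279 and 991) and 0.61 ± 0.14 (142 and 181, then 239 and 192). *LSO1* had too few counts to be tested (13 and 11, then 3 and 4).

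**Figure D1:**
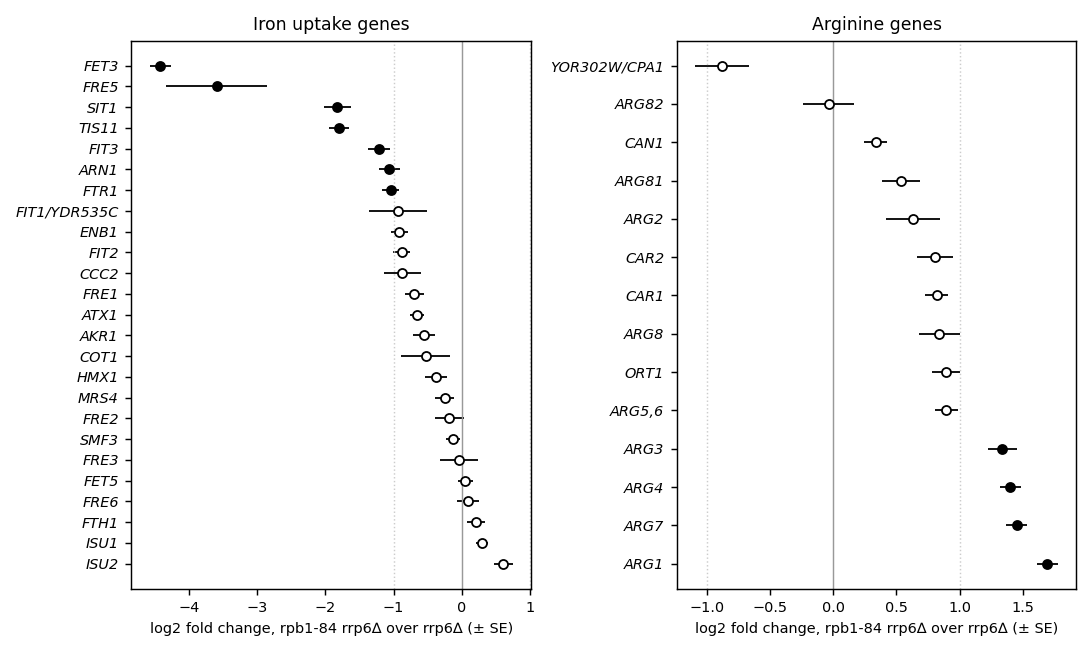
Log2 fold change of the double mutant over *rrp6∆* (x axis, ± SE from edgeR) for each tested member of the iron list (left, 25 rows) and for 14 of the 15 of the arginine list (right), with filled points for the called rows and dotted lines at 2-fold. The iron members run from -4.42 (FET3) to 0.61 (ISU2), and the arginine members shown from -0.88 (the row of *CPA1*) to 1.70 (ARG1).

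Copper and zinc genes moved in the same direction, with 2 of 13 tested called lower (15.4%, against 2.88% of all ORFs). At any size 8 passed as lower and 2 as higher (23.3% and 25% of all ORFs), with a median of -0.47. *ZRT1*, the high-affinity zinc transporter, had 93 and 87 counts in *rrp6∆* and 42 and 29 in the double mutant (-1.15 ± 0.21, edgeR adjusted p = 4.46e-05). *FRE7*, a reductase induced when copper is low, had 76 and 78 and then 39 and 24 (-1.10 ± 0.22, edgeR adjusted p = 0.000202). Both calls ended when all transcripts set the scaling, at -0.99 and -0.94, and that of *FRE7* also without replicate 2 of the double mutant (-0.96).

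Genes of arginine synthesis were higher in the double mutant than in *rrp6∆*. Of the 15 members tested, 5 were called higher (33.3%, against 1.16% of all ORFs). At any size 13 passed the test as higher and 1 as lower, with a median of 0.84. Against WT, the list median was -1.05 in *rrp6∆* and 0.0065 in the double mutant. The list was thus low in *rrp6∆* and near WT in the double mutant. Among the called genes, *ARG1*, *ARG3*, *ARG4* and *ARG7* code for enzymes of the route from glutamate and carbamoyl phosphate to arginine. The letters TGACTCA, the site of the activator Gcn4, were present on either strand of the 500 bases before the start codon for 241 of the 6006 genes (4.01%), for 11 of 16 arginine genes (68.8%) and for all 5 called (100%). In a list of histidine, tryptophan and aromatic amino acid genes they were present for 8 of 21 (38.1%), in the lysine list for 5 of 12 (41.7%) and in the purine list for 2 of 19 (10.5%). Neither motif contains the other. Stretches of called genes that hold the site are shown because these lists rose together, with the motif in capitals (TGAGTCA on the other strand).
ARG1: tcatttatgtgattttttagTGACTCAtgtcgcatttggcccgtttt
ARG3: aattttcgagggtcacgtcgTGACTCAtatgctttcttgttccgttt
ARG4: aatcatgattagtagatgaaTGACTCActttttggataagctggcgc
ARG7: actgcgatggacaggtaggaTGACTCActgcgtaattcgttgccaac
HIS4: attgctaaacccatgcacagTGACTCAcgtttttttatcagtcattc
ARO4: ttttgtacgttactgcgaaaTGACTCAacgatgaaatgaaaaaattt
ADE12: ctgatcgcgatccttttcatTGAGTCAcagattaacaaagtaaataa
They lie at chrXV:218846-218892 (plus strand), chrX:268465-268511 (plus), chrVIII:141555-141601 (minus), chrXIII:396505-396551 (minus), chrIII:68506-68552 (minus), chrII:718280-718326 (minus) and chrXIV:234170-234216 (plus), in the same order and R64 coordinates. The called genes *ARO3*, *ADE1*, *ADE2*, *ADE57* and *ADE17* had no TGACTCA in this window.

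*ARG1* (YOL058W, chromosome XV, 219211 to 220473), argininosuccinate synthase, had 2311 and 2071 counts in *rrp6∆*, 7069 and 5371 in the double mutant and 7415 and 6299 in WT. In normalized CPM it rose from 489 ± 30.3 in *rrp6∆* to 1585 ± 23.2 in the double mutant, 3.24-fold higher (1.70 ± 0.085, edgeR adjusted p = 4.17e-16), and was 2596 ± 48.8 in WT. The double mutant thus stood between the other strains, without overlap. *ARG4* (YHR018C), argininosuccinate lyase, had 1601 and 1575 counts in *rrp6∆* and 4151 and 3190 in the double mutant (1.40 ± 0.083, edgeR adjusted p = 1.13e-14), and its level in the double mutant (936 ± 6.15 normalized CPM) was near that in WT (918 ± 9.94).

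*ARG7* (YMR062C), the mitochondrial ornithine acetyltransferase, had 1238 and 1164 counts in *rrp6∆* and 3190 and 2550 in the double mutant (1.45 ± 0.084, edgeR adjusted p = 7.97e-15). *ARG3* (YJL088W), ornithine carbamoyltransferase, had 277 and 356 and then 698 and 691 (1.34 ± 0.12, edgeR adjusted p = 8.98e-11). Neither gene overlapped between the strains. The row YOR302W/CPA1, which counts a subunit of carbamoyl phosphate synthetase and the regulatory peptide encoded in its leader, went the other way with 76 and 80 counts in *rrp6∆* and 43 and 31 in the double mutant (-0.88 ± 0.21, edgeR adjusted p = 0.00121).

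The remaining synthesis genes *ARG8*, *ARG2* and *ARG56* (the ARG5,6 gene) passed as higher at 0.84, 0.63 and 0.90. *ORT1*, which exports ornithine from mitochondria, passed at 0.89. Arginine breakdown was no exception, with the arginase gene *CAR1* at 0.82 ± 0.089 (691 and 703 counts, then 1221 and 931) and the ornithine transaminase gene *CAR2* at 0.80 ± 0.14 (105 and 115, then 196 and 141). Of the regulators, *ARG81* passed as higher (0.54 ± 0.15), *ARG82* had -0.037 ± 0.20 and did not pass, and *ARG80* was not tested (8 and 9 counts, then 3 and 3).

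**Figure D2:**
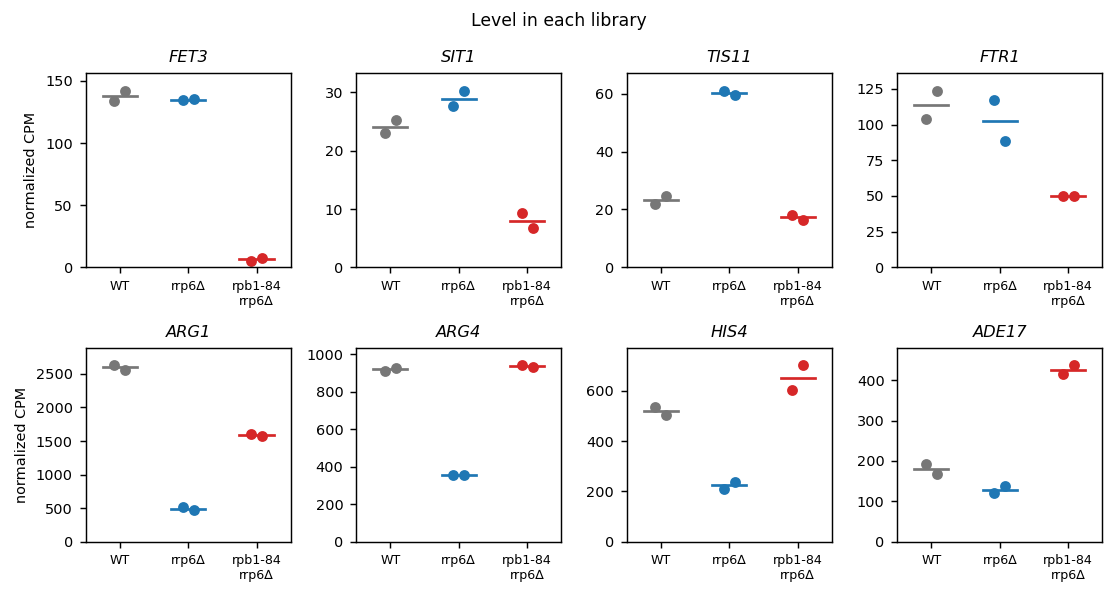
Level in normalized CPM (y axis, from 0) of 8 genes in each library of WT, *rrp6∆* and the double mutant (x axis), with a line at the mean of each strain. *FET3*, *SIT1*, *TIS11* and *FTR1* are lower in both double mutant libraries than in both of *rrp6∆*, and *ARG1*, *ARG4*, *HIS4* and *ADE17* are higher.

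Lysine synthesis genes were shifted together without any call. Of 12 tested, 10 passed the test as higher and none as lower, with a median of 0.78. Of all ORFs 25% passed as higher. Against WT, the list median was -0.50 in *rrp6∆* and 0.25 in the double mutant. *LYS20* (YDL182W, chromosome IV, 133437 to 134723), a homocitrate synthase at the first step, had 775 and 631 counts in *rrp6∆*, 1263 and 923 in the double mutant and 891 and 921 in WT. In normalized CPM this was 157 ± 20.3, 278 ± 11.7 and 345 ± 41.3, a change of 0.83 ± 0.099 between the *rrp6∆* strains (edgeR adjusted p = 5.37e-08) without overlap. *LYS9*, saccharopine dehydrogenase, had 4662 and 5864 counts and then 8501 and 7990 (0.86 ± 0.10), and *LYS12*, homoisocitrate dehydrogenase, 4670 and 5164 and then 6960 and 6439 (0.65 ± 0.089). The members that did not pass were *LYS4*, homoaconitase, at 0.14 ± 0.085 and *LYS5*, which activates Lys2, at -0.45 ± 0.30.

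Among histidine, tryptophan and aromatic amino acid genes, 3 of 21 tested were called higher (14.3%). At any size 16 passed as higher and none as lower, with a median of 0.58. Against WT, the list median was -0.42 in *rrp6∆* and 0.080 in the double mutant. *HIS4* (YCL030C, chromosome III, 65934 to 68333), a trifunctional enzyme of histidine synthesis, had 943 and 1059 counts in *rrp6∆*, 2656 and 2402 in the double mutant and 1511 and 1235 in WT (1.54 ± 0.093, edgeR adjusted p = 1.94e-14). Its level rose from 224 ± 21.8 to 652 ± 70.6 normalized CPM, and both double mutant libraries were above both of the other strains. *ARO4* and *ARO3*, the paired enzymes that start aromatic synthesis, had 2410 and 2538 and 611 and 648 counts in *rrp6∆* and 5261 and 3968 and 1201 and 1073 in the double mutant. Their changes, 1.09 ± 0.083 and 1.06 ± 0.093, were just past the 2-fold limit and fell under it with total ORF counts as the scaling (0.96 and 0.92), and that of *ARO3* also without replicate 1 of *rrp6∆* or replicate 2 of the double mutant (at the lowest, 0.95). *TRP2* (0.89 ± 0.091), *HIS7* (0.84 ± 0.10) and *ARO2* (0.83 ± 0.087) passed at a smaller size, and *TRP1*, which all strains carry as trp1-∆63, had 28 and 18 and then 3 and 29 counts.

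Purine synthesis genes held the next largest share of calls, 5 of 18 tested (27.8%), all higher. At any size 13 passed as higher and 3 as lower, with a median of 0.42. Against WT, the list median was -0.36 in *rrp6∆* and 0.54 in the double mutant. *ADE17* (YMR120C, chromosome XIII, 507502 to 509280), which catalyses the last steps to IMP, had 544 and 606 counts in *rrp6∆*, 1832 and 1496 in the double mutant and 541 and 413 in WT, or 128 ± 11.8, 426 ± 15.5 and 179.9 ± 16.96 normalized CPM. The change was 1.73 ± 0.093 (edgeR adjusted p = 1.37e-15), and the double mutant lay above both other strains.

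*ADE57* (the ADE5,7 gene, YGL234W), which acts early in the route, had 695 and 758 counts in *rrp6∆* and 2136 and 1627 in the double mutant (1.56 ± 0.088, edgeR adjusted p = 3.59e-15). *ADE12* (YNL220W), adenylosuccinate synthase on the branch from IMP to AMP, had 971 and 1015 and then 2546 and 2090 (1.42 ± 0.086, edgeR adjusted p = 1.87e-14). *ADE1* had 749 and 722 and then 1776 and 1241 (1.22 ± 0.088). *ADE2*, whose loss gives red colonies, had 336 and 430 and then 727 and 618 (1.01 ± 0.11), a call lost with total ORF counts (0.88) and without replicate 1 of *rrp6∆* or replicate 2 of the double mutant (at the lowest, 0.83).

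Not every purine gene rose. The isozyme of *ADE17*, *ADE16*, changed by 0.29 ± 0.093, and *ADE4*, the first committed enzyme, by 0.49 ± 0.10. The salvage enzymes went down, *HPT1* from 1447 and 1432 counts to 903 and 661 (-0.69 ± 0.085, edgeR adjusted p = 1.06e-07) and *APT1* from 1253 and 1221 to 1013 and 675 (-0.37 ± 0.09). *IMD3*, an IMP dehydrogenase on the way to GMP, passed as higher (0.91 ± 0.085), and the permease gene *FCY2* did so too (0.74 ± 0.083).

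The other amino acid lists held fewer calls. For comparison, 25% of all ORFs passed as higher and 23.3% as lower. In serine, glycine and one-carbon metabolism 10 of 17 passed as higher and 3 as lower (median 0.44). The row FYV12/SER1, which counts the phosphoserine aminotransferase gene *SER1* with an overlapping ORF, was called, with 922 and 1011 counts in *rrp6∆* and 2101 and 1773 in the double mutant (1.20 ± 0.09). The serine deaminase gene *CHA1*, on the breakdown side, passed as lower (1439 and 1253 counts, then 819 and 518, -0.83 ± 0.10). In the branched-chain list 9 of 15 passed as higher and 1 as lower (median 0.36). *LEU1*, isopropylmalate isomerase, stood at the 2-fold limit (401 and 427 counts, then 794 and 650) and was not called. In the list of sulfur amino acids 10 of 34 passed as higher and 7 as lower (median 0.025). Its called member, the sulfate permease gene *SUL2*, fell from 162 and 128 counts to 64 and 35 (-1.36 ± 0.19). Over all the amino acid and purine lists, 15 of the 131 rows tested were called higher (11.5%) and 1 lower (0.763%), against 1.16% and 2.88% of all ORFs. The call in the branched-chain list is *LEU2*, without which the count is 14 of 130.

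*LEU2* has to be read apart, as it marks the plasmid that carries RPB1 or *rpb1-84*. It had 16445 and 20009 counts in *rrp6∆*, 48891 and 44366 in the double mutant and 8613 and 6671 in WT, or 4074 ± 626, 12018 ± 1331 and 2884 ± 242 normalized CPM. The change between the *rrp6∆* strains was 1.56 ± 0.10 (edgeR adjusted p = 8.35e-14), whereas *RPO21*, on the same plasmid, had a fitted difference of -0.028 ± 0.084. The row does not tell the plasmid gene from the chromosomal leu2-3,112 allele. *HIS3*, which replaces the chromosomal RPB1 locus, changed by 0.40 ± 0.088 (1069 and 939 counts, then 1258 and 1050, in the row HIS3/YOR203W).

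**Figure D3:**
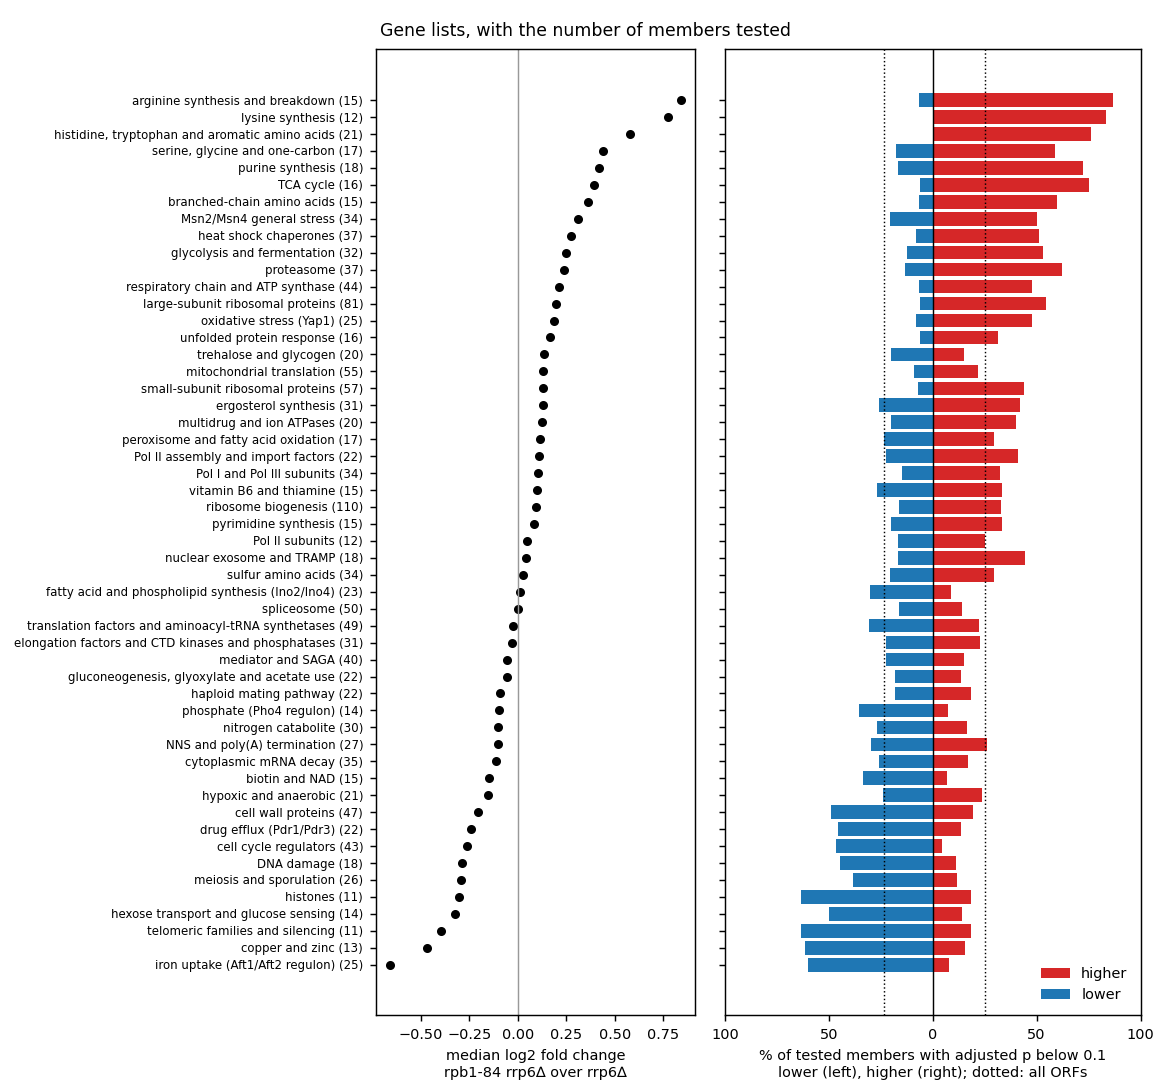
Median log2 fold change of the double mutant over *rrp6∆* (left) and the percentage of tested members with an adjusted p below 0.1, higher in red and lower in blue (right), for each gene list with at least 10 tested members, whose number is in parentheses. Dotted lines give the same shares over all ORFs tested (25% higher and 23.3% lower), and the medians run from -0.66 for iron uptake to 0.84 for arginine.

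Energy and protein quality genes had medians above 0 by small amounts. Of all ORFs, 25% passed as higher and 23.3% as lower. In the TCA cycle 12 of 16 tested passed as higher and 1 as lower (median 0.39), with *IDH2*, a subunit of isocitrate dehydrogenase, at 0.53 ± 0.084. In the proteasome list 23 of 37 passed as higher and 5 as lower (median 0.24). *PUP3*, the core subunit with the most counts there, was among those lower, with 4574 and 4687 counts in *rrp6∆* and 2818 and 2588 in the double mutant (-0.57 ± 0.087). Of the heat shock chaperones 19 of 37 passed as higher and 3 as lower (median 0.27). *HSP42*, a small heat shock protein, was the member called, with 952 and 944 counts and then 1903 and 1483 (1.03 ± 0.085), and fell to 0.90 with total ORF counts. Ribosomal proteins of the small subunit had 25 of 57 higher and 4 lower (median 0.13), and those of the large subunit 44 of 81 higher and 5 lower (median 0.20). The medians of the ribosomal proteins are about as large as the shift that the choice of scaling makes in the median of all ORFs (from -0.13 to 0.16), and that of the small subunit was -0.0045 with total ORF counts.

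Single genes of energy metabolism moved further. *NDE2*, an external NADH dehydrogenase of mitochondria, had 17 and 21 counts in *rrp6∆* and 63 and 50 in the double mutant (1.76 ± 0.26, edgeR adjusted p = 2.96e-06). *STF1*, which stabilizes the inhibited ATP synthase, had 467 and 451 and then 957 and 804 (1.14 ± 0.091, edgeR adjusted p = 1.60e-11). *ADH5*, an alcohol dehydrogenase isozyme, had 126 and 137 and then 314 and 347 (1.54 ± 0.14, edgeR adjusted p = 4.10e-10). None of these 3 overlapped between the strains, which the naming rule had required of *NDE2*. In the opposite direction, *MIG2*, a repressor of glucose-repressed genes, had 1257 and 1245 counts in *rrp6∆*, 436 and 306 in the double mutant and 317 and 275 in WT (-1.57 ± 0.092, edgeR adjusted p = 1.13e-14). *ADR1*, an activator of genes for non-fermentable carbon, had 836 and 702 and then 355 and 229, with 198 and 181 in WT (-1.21 ± 0.11, edgeR adjusted p = 9.38e-11). For both regulators the double mutant was near WT in normalized CPM, at 94.1 ± 6.65 against 112 ± 0.446 and at 73.7 ± 9.58 against 71.9 ± 2.38.

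Lists of the cell surface and the cell cycle had medians below 0, by amounts that depended on the scaling. When all transcripts set the scaling, the median was -0.046 for cell wall proteins, -0.11 for cell cycle regulators, -0.15 for histones and -0.087 for drug efflux genes. Of 47 cell wall proteins tested, 3 were called lower (6.38%), 23 passed as lower and 9 as higher (median -0.20). Among all ORFs, 2.88% were called lower, 23.3% passed as lower and 25% as higher. *CWP2*, a major mannoprotein, had 1210 and 908 counts in *rrp6∆* and 331 and 220 in the double mutant, with 611 and 379 in WT (-1.75 ± 0.13, edgeR adjusted p = 1.97e-12). Its neighbour *CWP1* had 23 and 22 and then 13 and 3 (-1.29 ± 0.47), a value that ranged from -2.47 to -0.76 as either double mutant library was left out, the latter without replicate 2 and no longer called, and the call also ended without replicate 1 of *rrp6∆* and in DESeq2. *PIR1*, a wall protein cross-linked to glucan, had 553 and 554 counts in *rrp6∆* and 638 and 475 in the double mutant (0.20 ± 0.095, edgeR adjusted p = 0.0889). The glucan synthase row FKS1/YLR342W-A (-0.62 ± 0.082) and the glucanosyltransferase gene *GAS1* (-0.59 ± 0.083) were among those that passed as lower.

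Of 43 cell cycle regulators, 20 passed as lower and 2 as higher (median -0.26), against 23.3% and 25% of all ORFs. *SWE1*, the kinase that holds back entry into mitosis, had 311 and 321 counts and then 132 and 131 (-1.06 ± 0.13), and *HCM1*, an S-phase transcription factor, 157 and 150 and then 70 and 59 (-1.05 ± 0.16). Both calls were lost when all transcripts set the scaling (-0.91 and -0.90) and without replicate 1 of the double mutant (-0.88 and -0.99). Of the 11 histone genes 7 passed as lower and 2 as higher (median -0.30), with *HTA1* at -0.37 ± 0.084 and *HHT2* at 0.06 ± 0.081, which did not pass. Drug efflux genes had 10 of 22 passing as lower and 3 as higher (median -0.24). *TPO2*, a polyamine exporter, fell from 623 and 738 counts to 240 and 156 (-1.59 ± 0.11, edgeR adjusted p = 1.13e-12), while *PDR11*, a transporter that takes up sterols, rose from 23 and 19 to 59 and 39 (1.41 ± 0.27, edgeR adjusted p = 8.31e-05).

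The machinery of transcription and RNA decay changed little as a group, with single exceptions. For comparison, 25% of all ORFs passed as higher and 23.3% as lower, and 2.88% were called lower. Of the 12 RNA pol II subunits tested none was called, 3 passed as higher and 2 as lower (median 0.044). Of 40 Mediator and SAGA subunits 3 were called lower (7.5%), 9 passed as lower and 6 as higher (median -0.055). *TRA1* (YHR099W), the large activator-binding subunit of SAGA and NuA4, had 837 and 688 counts in *rrp6∆*, 195 and 203 in the double mutant and 309 and 231 in WT (-1.73 ± 0.12, edgeR adjusted p = 5.30e-13). In normalized CPM this was 170.1 ± 20.9, 51.7 ± 10.7 and 102 ± 11.1, so that the double mutant was below both other strains. *SGF29*, a SAGA subunit, had 372 and 287 and then 149 and 123 (-1.08 ± 0.13), and was no longer called when all transcripts set the scaling (-0.92) or without replicate 1 of *rrp6∆* (-0.90). *SRB4*, a core Mediator subunit, rested on few counts (22 and 14, then 7 and 6) and was not called in DESeq2, without replicate 1 of *rrp6∆* or without replicate 1 of the double mutant.

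Of 27 factors of Nrd1-Nab3-Sen1 and poly(A) termination, 7 passed as higher and 8 as lower. Among all ORFs, 25% passed as higher and 23.3% as lower. *SYC1*, a subunit of the cleavage and polyadenylation factor, had 278 and 292 counts and then 128 and 87 (-1.22 ± 0.13, edgeR adjusted p = 1.04e-08). Of 18 nuclear exosome and TRAMP genes 8 passed as higher and 3 as lower (median 0.042), and the call among them was the *RRP6* row itself (-1.08 ± 0.11, edgeR adjusted p = 4.13e-09), which ended without replicate 2 of the double mutant (-0.93) and when all transcripts set the scaling (-0.93). Of 35 cytoplasmic mRNA decay genes 6 passed as higher and 9 as lower (median -0.11). *SKI7*, which joins the cytoplasmic exosome to the Ski complex, had 108 and 101 counts and then 26 and 32 (-1.65 ± 0.22, edgeR adjusted p = 4.99e-07).

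Outside these lists, the ORFs with the largest increases were mostly of low or moderate abundance. *SPO1* (YNL012W, chromosome XIV, 609686 to 611665), a meiotic gene, had 10 and 12 counts in *rrp6∆*, 59 and 29 in the double mutant and 27 and 17 in WT (2.17 ± 0.34, edgeR adjusted p = 4.49e-06). *GYP5*, which stimulates GTP hydrolysis by Ypt1 in transport from the endoplasmic reticulum, had 29 and 13 and then 82 and 60 (1.94 ± 0.27), and its change was 2.61 without replicate 1 of *rrp6∆* and 1.49 without replicate 2. Both genes were near their WT level in the double mutant, *SPO1* at 10.9 ± 3.46 against 8.25 ± 1.88 normalized CPM and *GYP5* at 18.1 ± 0.744 against 18.4 ± 2.51. YJR149W was well counted, at 773 and 978 and then 2466 and 2454 (1.70 ± 0.11, edgeR adjusted p = 8.35e-14).

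*AMS1*, the vacuolar mannosidase, had 22 and 17 counts and then 58 and 47 (1.62 ± 0.29), and *CDS1*, an enzyme of phospholipid synthesis, 7 and 12 and then 32 and 18 (1.57 ± 0.38). The row MOH1/RRT1, which cannot be split between its neighbours, had 31 and 24 and then 81 and 68 (1.63 ± 0.24). These rows did not overlap between the strains, which the rule for naming them required. *SNO1*, a gene of vitamin B6 metabolism, had the largest fitted increase of the called ORFs but under 10 counts in a double mutant library (2 and 1 counts, then 15 and 9).

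The largest decreases after *FET3* were in sparse rows. YIR043C and YIR042C, next to each other on chromosome IX, had 17 and 17 and 70 and 60 counts in *rrp6∆* and 1 and 1 and 12 and 5 in the double mutant. For YIR043C the ratio from summed counts was 0.0673 (95% counting interval 0.00783 to 0.262), and for YIR042C the fitted change was -2.73 ± 0.32 (edgeR adjusted p = 3.47e-08). YGL072C had 79 and 77 counts and then 7 and 4 (-3.60 ± 0.33, edgeR adjusted p = 2.31e-10). Strains did not overlap in any of these rows, again as the naming rule required.

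*RGS2*, a negative regulator of glucose-induced cAMP signalling, had 181 and 163 counts in *rrp6∆*, 36 and 20 in the double mutant and 83 and 86 in WT (-2.42 ± 0.20, edgeR adjusted p = 1.76e-11). *DIG2*, an inhibitor of the mating transcription factor Ste12, had 71 and 46 and then 12 and 11 (-2.14 ± 0.33, edgeR adjusted p = 4.88e-06). Both were below WT in the double mutant, at 6.999 ± 1.64 against 32.2 ± 3.91 normalized CPM and at 2.97 ± 0.349 against 7.96 ± 3.79. The alpha-factor gene MF(ALPHA)1, a marker of the labelled mating type, had 20 and 19 and then 5 and 1 counts, and its change of -2.46 ± 0.55 was -3.74 without replicate 1 of the double mutant and -1.91 without replicate 2.

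*XDJ1*, a chaperone of the DnaJ family, showed another course, with 14 and 17 counts in WT, 213 and 199 in *rrp6∆* and 53 and 28 in the double mutant (-2.15 ± 0.18, edgeR adjusted p = 4.04e-11). The row YNL205C/SPS18/YNL203C, around a sporulation gene, had 10 and 15, 109 and 89 and 20 and 14 in the same order (-2.34 ± 0.25, edgeR adjusted p = 8.60e-09). In these rows *rrp6∆* was the high strain and both others were low. *ANB1*, the hypoxic form of eIF5A, fell from 45 and 55 counts to 9 and 11 (-2.11 ± 0.33), and YOL150C from 41 and 37 to 7 and 6 (-2.37 ± 0.37).

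Against the ORFs, every noncoding class was lower as a whole in the double mutant. The median change was -0.40 for the 856 CUTs tested, -0.47 for 639 SUTs, -0.43 for 1375 NUTs, -0.41 for 1043 XUTs and -0.66 for 59 sn(o)RNAs, and between 74.6% (XUTs) and 84.7% (sn(o)RNAs) of each class lay below 0. Called lower were 136 CUTs (15.9%), 111 SUTs (17.4%), 222 NUTs (16.1%), 187 XUTs (17.9%) and 16 sn(o)RNAs (27.1%). These counts moved with the scaling, to 100 CUTs, 76 SUTs, 148 NUTs, 127 XUTs and 13 sn(o)RNAs when all transcripts set it and to 195, 149, 303, 244 and 20 with total ORF counts. Single transcripts went against their class. Called higher were 7 CUTs (0.818%), 5 SUTs (0.782%), 22 NUTs (1.6%) and 12 XUTs (1.15%), shares near the 1.16% of the ORFs, and no sn(o)RNA. In all 46 of these the strains did not overlap, which a called change likewise makes likely by itself. At any size, 67 CUTs passed the test as higher (7.83%) and 427 as lower (49.9%), 30 SUTs (4.69%) and 298 (46.6%), 94 NUTs (6.84%) and 726 (52.8%), 69 XUTs (6.62%) and 449 (43%), and 4 sn(o)RNAs (6.78%) and 43 (72.9%). The files give no coordinates for these transcripts, so their neighbours were not analysed here. How reads on overlapping features or on the opposite strand were counted is not given in the sources used here, so some rows may share reads with a gene. Rows of different classes may share reads too. The study states that NUTs often overlap CUTs, and XUTs both SUTs and CUTs. The classes are therefore not independent of each other, and the 46 rows called higher are not all separate transcripts.

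**Figure D4:**
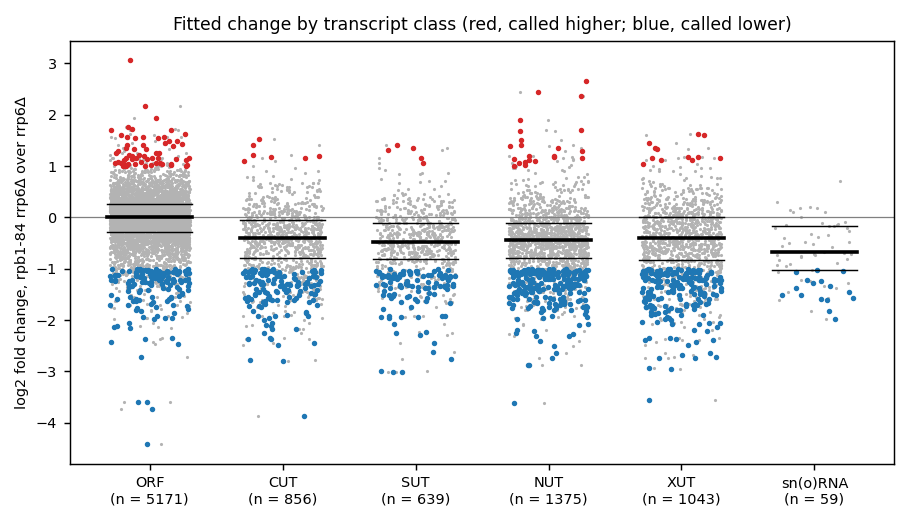
Log2 fold change of the double mutant over *rrp6∆* (y axis) of each tested transcript by class (x axis), with the median as a thick line and the quartiles as thin lines, called higher in red and called lower in blue. The ORF median is at -0.00023 and those of the noncoding classes lie between -0.40 and -0.66, while the red points mark the 60 ORFs and the 46 noncoding transcripts called higher.

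Of the 7 CUTs called higher, 6 had at least 10 counts in each double mutant library. CUT908 had 22 and 17 counts in WT, 129 and 109 in *rrp6∆* and 362 and 239 in the double mutant (1.52 ± 0.13, edgeR adjusted p = 1.29e-10). NUT1504 had the same counts within 2 in every library, so this is a single signal under different names. CUT916 had 28 and 25, 199 and 194 and 399 and 380 counts in the same order, or 10.05 ± 0.165, 43.9 ± 0.110 and 101 ± 14.6 normalized CPM (1.19 ± 0.12, edgeR adjusted p = 2.04e-09). Both CUTs thus stood lowest in WT and highest in the double mutant.

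CUT904 had 70 and 77 counts in *rrp6∆* and 157 and 135 in the double mutant (1.19 ± 0.16, edgeR adjusted p = 7.36e-07). CUT014 had 79 and 55 and then 158 and 116 (1.22 ± 0.18), and CUT518 60 and 35 and then 96 and 90 (1.17 ± 0.22). CUT518 was nearly absent from WT (2 and 1 counts). Without replicate 2 of *rrp6∆* neither of the last 2 was called, with CUT014 at 1.00 and CUT518 at 0.84. CUT474, a CUT that the study followed by RT-qPCR, had 585 and 659 counts in *rrp6∆* and 639 and 559 in the double mutant, with overlapping libraries, and did not pass the test (0.15 ± 0.10, edgeR adjusted p = 0.243). CUT638, followed in the same way, fell from 330 and 295 to 216 and 172 (-0.49 ± 0.12, edgeR adjusted p = 0.00143).

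SUT779 was the clearest SUT against its class. It had 95 and 90 counts in WT, 550 and 522 in *rrp6∆* and 1337 and 1132 in the double mutant, or 35.2 ± 2.05, 119.6 ± 2.57 and 317 ± 19.6 normalized CPM (1.40 ± 0.09, edgeR adjusted p = 8.10e-14), and no 2 strains overlapped. SUT355 had 123 and 118 counts in *rrp6∆* and 333 and 207 in the double mutant (1.35 ± 0.14, edgeR adjusted p = 3.75e-09). The other 3 were less firm. SUT118 (27 and 31 counts, then 55 and 71, 1.32 ± 0.27) fell to 0.94 without replicate 2 of the double mutant. SUT370 (55 and 89, then 154 and 127, 1.16 ± 0.18) fell to 0.84 without replicate 1 of *rrp6∆*. SUT520 (137 and 116, then 274 and 190, 1.06 ± 0.14) fell to 0.93 with total ORF counts and to as low as 0.96 without replicate 2 of *rrp6∆* or replicate 1 of the double mutant. The SUTs that the study followed by RT-qPCR went with the class, SUT228 from 335 and 281 counts to 208 and 195 (-0.41 ± 0.12) and SUT240 from 857 and 820 to 544 and 373 (-0.68 ± 0.096).

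NUT0356 was the most abundant of the transcripts that went against their class, and changed most among those well counted. It had 988 and 497 counts in WT, 2482 and 2146 in *rrp6∆* and 13930 and 11588 in the double mutant. In normalized CPM this was 276 ± 105, 516 ± 45.04 and 3270.4 ± 162, the double mutant being 6.33-fold above *rrp6∆* (2.66 ± 0.13, edgeR adjusted p = 1.57e-16). NUT1303 was distinct in its background, as WT had 89 and 91 counts, *rrp6∆* 78 and 68 and the double mutant 307 and 343 (2.36 ± 0.16, edgeR adjusted p = 4.32e-13). It was lowest in *rrp6∆*, with 34.3 ± 3.84, 16.3 ± 1.33 and 84.9 ± 21.7 normalized CPM in WT, *rrp6∆* and the double mutant.

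The next NUTs rested on few counts. NUT0721 had 9 and 2 counts in *rrp6∆* and 25 and 28 in the double mutant (2.43 ± 0.46), a change of 3.81 without replicate 1 of *rrp6∆* and 1.75 without replicate 2. NUT0881 had 18 and 10 and then 46 and 46 (1.90 ± 0.32, edgeR adjusted p = 1.21e-05). NUT0220 had 2 and 9 and then 21 and 11 with 0 and 0 in WT (1.70 ± 0.53), and was 3.11 without replicate 2 of *rrp6∆*, but was not called in DESeq2 (adjusted p = 0.164), without replicate 1 of *rrp6∆* (0.99) or without replicate 1 of the double mutant (1.36). Of the 22 NUTs called higher, 3 had a row elsewhere with counts within 2 in every library. These rows were CUT908 for NUT1504, the XUT 15R249 for NUT1423 and the ORF YMR152W for NUT0927. Other rows were close without meeting that limit. SUT779 had 1337 and 1132 counts in the double mutant beside 1406 and 1183 for NUT1423. NUT0245 had 308 and 275 there, and the XUT 7F36 293 and 266. Rows called higher in different classes may thus count the same reads.

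Among the rows taken as XUTs, 7F36 had 62 and 37 counts in WT, 107 and 102 in *rrp6∆* and 293 and 266 in the double mutant (1.62 ± 0.14, edgeR adjusted p = 1.24e-10). WT and *rrp6∆* were close, at 18.5 ± 4.91 and 23.3 ± 0.428 normalized CPM against 72.04 ± 7.999 in the double mutant. 15R249, the double of NUT1423, was the best counted, with 113 and 106, 594 and 574 and 1407 and 1183 counts in the same order (1.35 ± 0.088, edgeR adjusted p = 1.52e-13). 5F122 had 6 and 3, 79 and 61 and 174 and 133 (1.32 ± 0.17, edgeR adjusted p = 1.60e-07), so that it stood lowest in WT. 13F209 had 136 and 154 in *rrp6∆* and 324 and 254 in the double mutant (1.19 ± 0.13), and 12F184, at the low end, 14 and 11 and then 38 and 29 (1.60 ± 0.33).

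**Figure D5:**
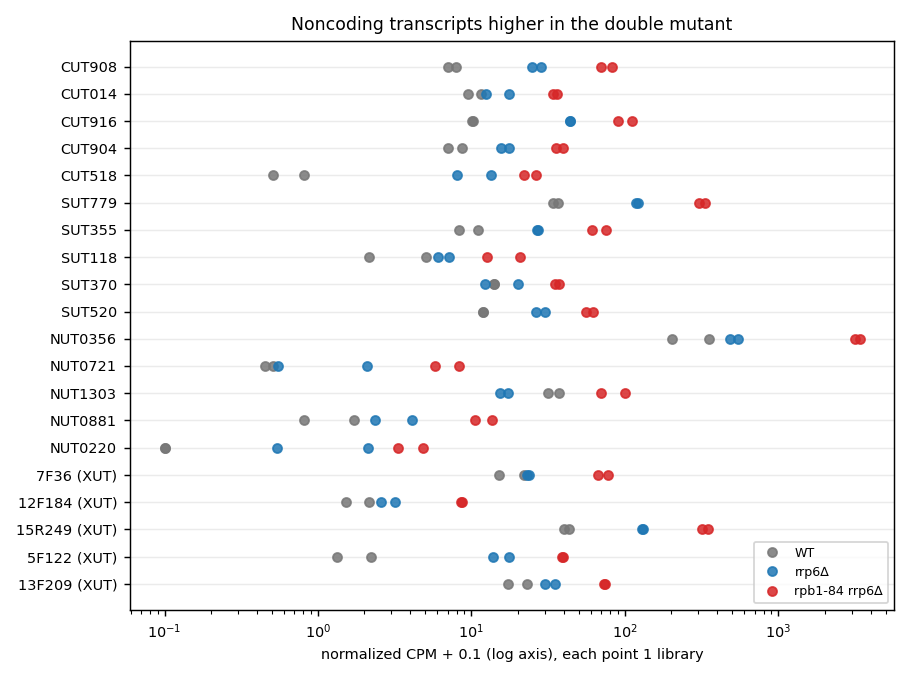
Normalized CPM with 0.1 added (x axis, log scale) in each of the 6 libraries, a point each, for the 20 CUTs, SUTs, NUTs and XUTs named as going against their class (y axis). Both double mutant points lie to the right of both *rrp6∆* points in each row, as the rule for naming these rows required. The widest gap among the abundant rows is that of NUT0356.

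The sn(o)RNA rows held 0.48% and 0.41% of all counts in the WT libraries. Their mean share was 7.80% in *rrp6∆* and 5.43% in the double mutant. Tags of precursors and of mature sn(o)RNAs or tRNAs are not told apart, so these rows do not measure the mature RNAs alone. No sn(o)RNA was called higher by edgeR or by DESeq2. A total of 4 passed the test as higher at a smaller size, 3 of them with an unadjusted p below 0.05. They are named here after their values were seen. snR84 had 1696 and 1898 counts in *rrp6∆* and 2733 and 2368 in the double mutant (0.71 ± 0.092, edgeR adjusted p = 2.88e-07), without overlap. snR46, snR43 and snR31 changed by 0.30, 0.18 and 0.17, and since all transcripts as the scaling moved the ORF median by 0.16 and total ORF counts by -0.13, changes of this size depend on the scaling. Of the 39 other rows, the LTR element YDRCdelta9 was called higher (2.7% of 37 tested), with 62 and 65 counts in *rrp6∆*, 266 and 253 in the double mutant and 59 and 34 in WT (2.23 ± 0.16, edgeR adjusted p = 1.49e-12). A further 7 were called lower (18.9%). Among them was tV(AAC)G3, a valine tRNA gene, with 1522 and 1429 counts in *rrp6∆* and 393 and 338 in the double mutant (-1.81 ± 0.095, edgeR adjusted p = 8.89e-16). It had 38 and 23 counts in WT.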

How the data were processed

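RNA-Seq of 3′ tags from 6 libraries, 2 independent cultures each of WT, *rrp6∆* and *rpb1-84 rrp6∆*, was used, and the other 4 libraries of the series are not used here. The authors checked reads with FastQC, clipped adapters with Fastx Clipper, used HISAT2 to align them to R64 (strain S288C) and featureCounts to count them, and the deposited values are raw counts per feature without normalization. Tool versions, strand setting and the treatment of overlapping features are not given in the sources used here. The libraries held 2727771 to 5601935 counts, and counting intervals cover counting error only. Columns of other samples did not occur (0).

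Counts were fitted with edgeR 4.0.16 (R 4.3.3) by quasi-likelihood over the 6 libraries, with TMM factors from ORF rows, ORF sums as library sizes and filterByExpr. Of the 10431 rows 9180 were tested, with Benjamini-Hochberg adjustment over all of them. A row was called at a log2 fold change beyond 1 in either direction and adjusted p below 0.1, the limits of the study's methods, which used DESeq2. The biological coefficient of variation was 0.0603. Replicates of a strain differed by more than counting error (chi-square per row of 1.46 in WT, 4.31 in *rrp6∆* and 2.61 in the double mutant, over rows with at least 20 counts). The statistics were tested on simulated data with known changes well beyond 2-fold in well-counted ORFs. Sparse rows and changes near 2-fold were not covered by that test.

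Rows were sorted into classes by identifier. A total of 286 ORF rows name more than 1 feature, and 5319 of 5376 matched RefSeq. The members and the gene lists were chosen with earlier results of these data known. The text names the 12 ORFs with the largest increase and the 12 with the largest decrease that were called, did not overlap and had at least 10 counts in each library of the higher strain. By the same rule it names up to 5 noncoding transcripts per class against the class median, up to 4 called members of each list described (or 2 abundant members where none was called), *RRP6*, *RPO21*, *LYS20*, *PIR1* and the transcripts that the study measured by RT-qPCR. For iron, amino acid and purine lists further members were named after their values were seen. A member that the rule would name is not reported here, though the counts of its list include it. Fixed alternatives were other scalings (TMM over all rows, DESeq2 size factors, total ORF counts), DESeq2 1.42.0, no filter or a stricter one, the 4 compared libraries or ORFs alone, a threshold of 0.05, a replicate block and each library left out. Python 3.11.15, numpy 2.4.6, pandas 2.3.3, scipy 1.17.1 and matplotlib 3.10.9 were used for the rest.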

Additional observations from a re-analysis of the deposited data

How the results depend on the processing

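No named transcript that passed the test changed direction, whereas *RPO21* and *HHT2*, which did not pass, changed sign with the scaling (-0.16 to 0.13 and -0.073 to 0.22). With TMM over all transcripts the majority of ORF calls turned from lower to higher (117 higher and 95 lower), with 5 iron uptake genes lower and 12 CUTs, 11 SUTs and 22 XUTs higher. With total ORF counts, 38 ORFs were called higher and 241 lower, 11 iron uptake genes lower, 1 histidine, tryptophan and aromatic gene higher and 8 XUTs higher. DESeq2 called 57 ORFs higher, 124 lower and 7 XUTs higher. Leaving out each library in turn gave 57 to 79 ORFs higher and 131 to 192 lower, 7 to 11 CUTs higher (11 without replicate 1 of *rrp6∆*) and 135 to 156 lower, 5 to 6 SUTs higher and 100 to 127 lower, 20 to 25 NUTs higher and 207 to 246 lower, 11 to 15 XUTs higher and 168 to 220 lower, and 15 to 17 sn(o)RNAs lower with 0 higher. Over the same fits 6 to 9 iron uptake genes were called lower, and 5 to 6 arginine, 2 to 4 histidine, tryptophan and aromatic and 4 to 5 purine genes higher. A strain left with 1 library was assumed to vary like the others. With a replicate block, 60 ORFs were called higher (59 shared) and 151 lower (149 shared), 8 CUTs, 5 SUTs, 22 NUTs and 13 XUTs higher. Deviations of same-numbered *rrp6∆* and double mutant libraries correlated by 0.0462 over 6280 rows, so the numbers were not taken as pairs. With 2 cultures per strain, 1 construction each and low counts in many ORFs called lower, single calls near 2-fold remain uncertain.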
